A study of Mus musculus with 240 samples.

Results

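Oligodendrocyte precursor cells (OPCs) lacking Trp53 and Nf1 were compared with wild-type OPCs 90 days after tamoxifen treatment began (90 dpi). The members are the bulk libraries labelled 90 dpi with the genotype Trp53-/- Nf1-/- (CKO) or wild-type (WT), which are 15 of the 240 libraries of the series. Libraries with the same animal number were added together, so that 10 CKO libraries gave 7 animals and 5 WT libraries gave 5, or 12 of the 37 animals with bulk libraries. The CKO group held 3 males and 4 females and the WT group 2 males and 3 females. Cells labelled tdT-positive were taken by laser microdissection from brain sections, and both groups were defined by time after tamoxifen. Animal age, strain background and the driver of the recombinase were not given in the sources used here.

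OPCs are the dividing glial cells of the adult brain from which myelinating oligodendrocytes arise. Nf1 encodes neurofibromin, which switches the growth signal RAS off, and Trp53 encodes p53, a transcription factor that halts or kills damaged cells. Mice without both genes in OPCs are used as a model of malignant glioma, and the CKO samples labelled 150 dpi are tumours.

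Depth was uneven. The CKO libraries held 4.11 to 20.2 M counts (M, 1000000 counts) and 4 of the WT libraries 12.0 to 19.3 M. The fifth, WT_21167, held 0.0937 M counts in 10743 genes, and 1 count there equals 9.48 counts per 1000000 (CPM). One of the libraries of CKO_20647 also stood apart, with counts in 13265 genes against 17957 in its partner at nearly the same depth. These partners correlated at 0.80 across genes on the log2 scale, where the paired libraries of CKO_20642 and CKO_22212 correlated at 0.97 and 0.98. No pair of the 15 libraries was identical, and genes of the Y chromosome placed all 12 animals in their labelled sex. Values without WT_21167 or the library of few genes are given beside the results they moved most.

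Of the 8 genes that passed the test, 6 are near-identical copies of another gene. For 3 of them an ungapped stretch of 60 bases within the parent's coding sequence is printed, chosen for the most differences from the parent gene. It shows only some of the bases that tell these copies from their parents. The aligned transcripts held 26 mismatches for Gm8822, 17 for Gm9008 and 19 for Gm5436. Differing bases are in capitals, and the sequences run 5′ to 3′ in GRCm38.
Gm8822: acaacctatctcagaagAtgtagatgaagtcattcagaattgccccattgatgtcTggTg
Actr3: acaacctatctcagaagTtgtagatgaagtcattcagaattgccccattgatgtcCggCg
Gm9008: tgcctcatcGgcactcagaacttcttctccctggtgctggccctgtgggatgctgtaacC
Rnf26: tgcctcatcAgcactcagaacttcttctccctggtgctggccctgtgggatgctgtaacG
Gm5436: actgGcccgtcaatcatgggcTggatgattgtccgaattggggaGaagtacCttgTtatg
Atp5o: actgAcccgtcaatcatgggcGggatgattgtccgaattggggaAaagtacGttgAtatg
The Gm8822 window is chrX:81821792-81821851 and that of Actr3 chr1:125397465-125397524, both on the minus strand, with 3 differing bases. Gm9008 is shown at chr6:76497110-76497169 and Rnf26 at chr9:44112428-44112487, both minus, with 2. Gm5436 is shown at chr12:84258386-84258445 and Atp5o at chr16:91925332-91925391, both minus, with 5. Over the aligned transcripts, identity was 98.8% for Gm8822 and Actr3, 99.1% for Gm9008 and Rnf26, 97.0% for Gm5436 and Atp5o and 98.6% for Tuba1c and Tuba1b.

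The deleted genes come first. Nf1 (ENSMUSG00000020716) had 205, 302, 150, 177, 185, 175 and 176 CPM in CKO_20642, CKO_20647, CKO_22146, CKO_22149, CKO_22152, CKO_22154 and CKO_22212. It had 294, 306, 274, 343 and 281 CPM in WT_21167, WT_22184, WT_22185, WT_22254 and WT_22255. CKO_20647 was the only CKO animal inside the WT range, and its library of few genes held 337 Nf1 counts per 1000000 against 180 in its partner. The log2 change was -0.62 (SE 0.14), which did not pass (edgeR adjusted p = 0.145). Without the library of few genes it passed, at -0.75 (edgeR adjusted p = 0.0022), and the adjusted p over all 24 alternatives ran from 0.0022 to 0.521. Permuting the 12 animals gave Nf1 a difference of -0.64 on log2 CPM (exact permutation test, two-sided, p = 0.0101), and -0.65 without WT_21167 (exact p = 0.0121).

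Trp53 (ENSMUSG00000059552) had 31.1, 28.4, 15.9, 21.1, 29.0, 26.6 and 38.5 CPM in the CKO animals in the same order. The WT animals had 9.48, 26.0, 25.5, 27.2 and 29.4 CPM, the first of these being a single count in WT_21167. The groups overlapped, and Trp53 did not pass (log2 change 0.068, SE 0.25, edgeR adjusted p = 1.00). For Trp53 the permutation difference was 0.26 (exact p = 0.460), and -0.034 without WT_21167 (exact p = 0.885). The deposited table holds 1 value per gene and not per exon, so neither value measures the share of deleted alleles.

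Few genes separated the genotypes. Of 16349 genes, 8 passed an adjusted p of 0.05 (edgeR quasi-likelihood test, Benjamini-Hochberg), or 0.0489%. Gm9008, Eno1b, Gm4735 and Irx2 were higher in CKO, while Gm8822, Tuba1c, Atp13a5 and Gm5436 were lower. At an unadjusted p under 0.05 there were 850 genes, or 5.20%. The count was 7 without WT_21167, 5 without WT_22184 and 4 without WT_22255.

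**Figure D1:**
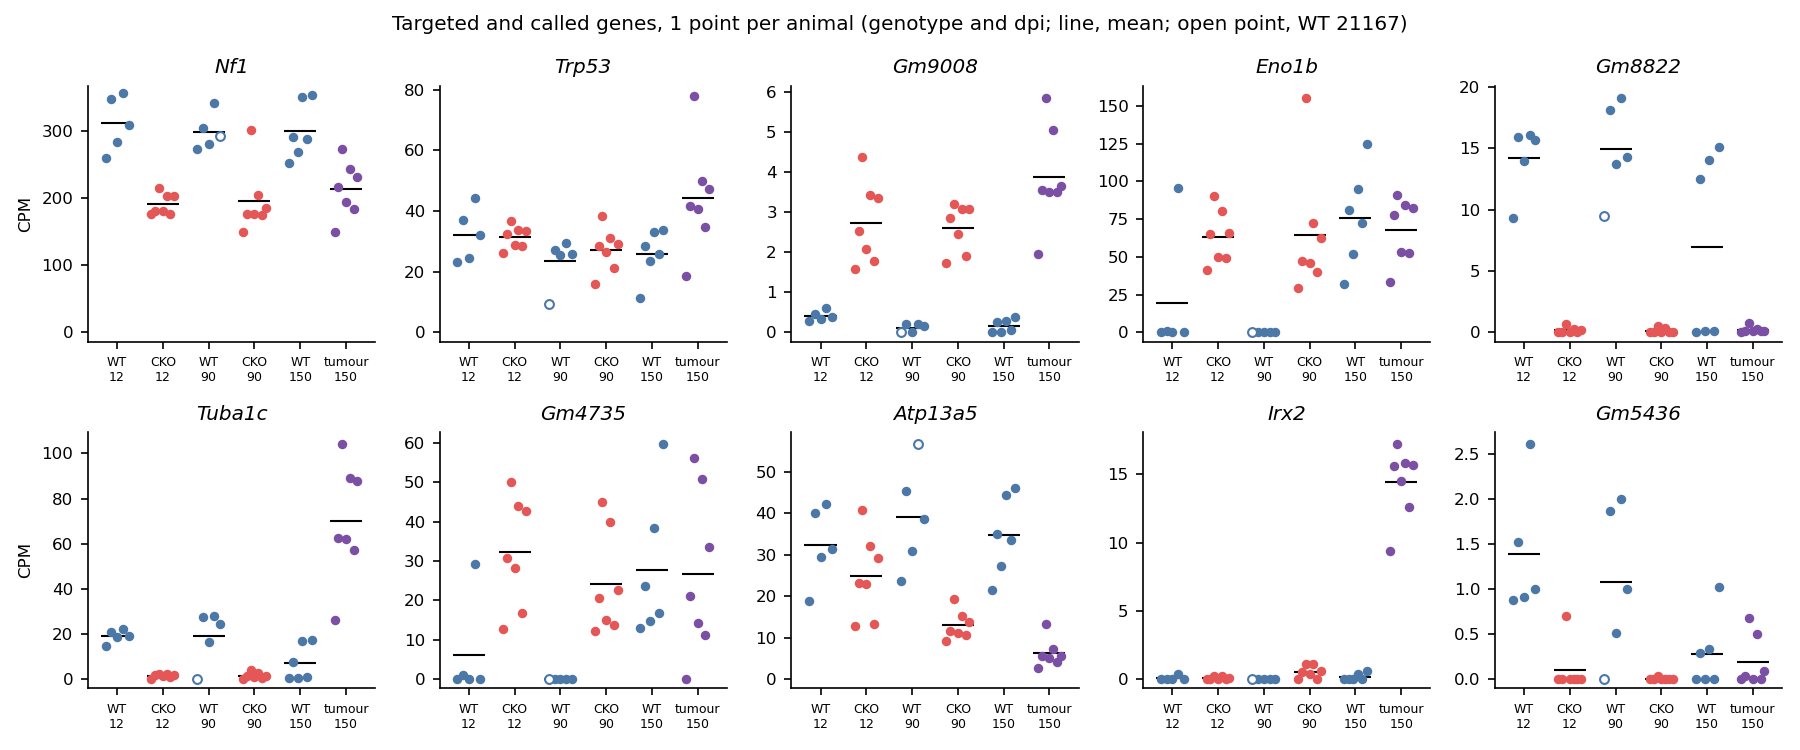
CPM on a linear axis of Nf1, Trp53 and the 8 called genes in each bulk animal, by genotype and dpi, with the group mean as a line and WT_21167 as an open point. At 90 dpi Gm9008, Eno1b, Gm8822, Gm4735 and Atp13a5 do not overlap between CKO and WT, and Irx2 lies between 9.37 and 17.2 CPM in tumours.

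Atp13a5 was the one called gene with neither a near-identical copy nor a level near 0. It encodes a P-type ATPase and is a marker of brain pericytes, the cells that wrap capillaries. Atp13a5 had 15.3, 9.23, 11.5, 19.4, 13.8, 10.5 and 11.1 CPM in CKO animals and 56.9, 45.5, 30.9, 23.7 and 38.7 CPM in WT animals. The highest CKO animal lay below the lowest WT animal. The log2 change of Atp13a5 was -1.50 (SE 0.28, edgeR adjusted p = 0.0159). It passed in 19 of 24 alternatives. The edgeR adjusted p of Atp13a5 was 0.177 without WT_22255, 0.0791 without WT_22184, 0.0505 without CKO_22146 and 0.146 with the CKO animals of 1 library, at log2 changes of -1.39 to -1.50. Atp13a5 had 0 counts in the library of few genes. Without that library it still passed (-1.38, edgeR adjusted p = 0.0450), but not when WT_21167 was left out as well (-1.33, edgeR adjusted p = 0.0922).

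The other pericyte markers were lower in CKO too, though none of them was called. With Atp13a5 counted in, all 11 tested pericyte markers had a negative log2 change, 10 with an unadjusted p under 0.05. Art3 was close to no change (-0.033), and ran from -0.29 to 0.31 with each animal left out. Over all genes 44.8% were negative, and 1.88% were negative with an unadjusted p under 0.05. The median of the pericyte markers was -1.27, against 0.036 over all tested genes. Without WT_21167 the pericyte median was -1.25, with 9 members at an unadjusted p under 0.05. Without both WT_21167 and the library of few genes it was -1.14, with 8. In bulk samples, fewer cells of a type and less RNA per cell cannot be told apart.

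Summed over the 11 pericyte markers, the CKO animals had 288, 277, 269, 427, 304, 246 and 239 CPM. The WT animals had 540.3, 720, 471, 435 and 546 CPM. The groups did not overlap, with CKO_22149 at 427 CPM next to WT_22254 at 435. On average Rgs5 gave 201 of 293 CPM in CKO and 324 of 542 CPM in WT, and Rgs5 alone overlapped. The list was chosen with results of these data known, so its direction is a description.

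Pdgfrb, the receptor by which platelet-derived growth factor B recruits pericytes, had 12.9, 7.70, 5.12, 12.3, 15.4, 11.5 and 12.3 CPM in CKO animals and 37.9, 36.2, 23.9, 21.5 and 27.1 in WT animals. These values did not overlap, and the log2 change of Pdgfrb was -1.32 (SE 0.39, edgeR adjusted p = 0.575). Vtn, the matrix protein vitronectin, had 18.4 to 55.8 CPM in CKO and 52.2 to 98.3 in WT, where CKO_22149 alone reached the WT range. Rgs5, a regulator of G protein signalling, had 154 to 279 CPM in CKO and 275 to 435 in WT. The potassium channel subunits Kcnj8 and Abcc9 had log2 changes of -1.28 and -1.01. Higd1b, Ndufa4l2 and Notch3, a receptor of mural cells, had -1.58, -1.17 and -0.64. Anpep, an aminopeptidase, had the lowest log2 change of the list, -1.75, and Art3 the highest, -0.033.

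In a fit without the tumour animals 16 genes passed, or 0.102%. Atp13a5 (edgeR adjusted p = 0.0019), Pdgfrb (0.0189) and Vtn (0.0390) were the pericyte markers among them. In the 12 animals at 90 dpi alone 8 genes passed, 6 of them among the 8 above, and Atp13a5 was the pericyte marker called (edgeR adjusted p = 0.0176).

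Endothelial markers were also mostly lower in CKO, with a smaller median change, and smooth muscle markers were mixed. Of 12 endothelial markers 11 were negative, 3 with an unadjusted p under 0.05, and the median was -0.60. In the 12 animals alone 7 had an unadjusted p under 0.05, and without the tumours 6. Over all genes these fits had 1189 of 15153 and 1243 of 15640 at that p. At 12 dpi all 12 endothelial markers were negative, with a median of -0.40 and none called, where 45.7% of all genes were negative. Esam, an adhesion molecule of endothelial junctions, had 2.02 to 5.40 CPM in CKO and 5.80 to 14.2 in the WT animals except WT_21167, which had 0. Slco1a4, a transporter of the blood-brain barrier, had 29.5 to 45.3 CPM in CKO and 49.3 to 85.3 in WT, without overlap (log2 change -0.65, edgeR adjusted p = 0.964). Flt1, a receptor of vascular endothelial growth factor, had 62.9 CPM on average in CKO (SD 16.9, n = 7) and 100.2 in WT (SD 14.6, n = 5; log2 change -0.69). Itm2a (1.31) was the endothelial marker with a positive change. Summed endothelial levels overlapped, at 173 to 299 CPM in CKO and 227 to 402 in WT. Of 5 smooth muscle markers 3 were negative, with a median of -0.47. Without WT_21167 and the library of few genes it was -0.24, and with each animal left out it ran from -0.82 to -0.17. The haemoglobin gene Hbb-bs had 59.2 CPM in CKO_22149, 14.1 in CKO_20647, 0 to 3.92 in the other CKO animals and 0 in the WT animals except WT_21167, where it had 19.0 CPM.

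**Figure D2:**
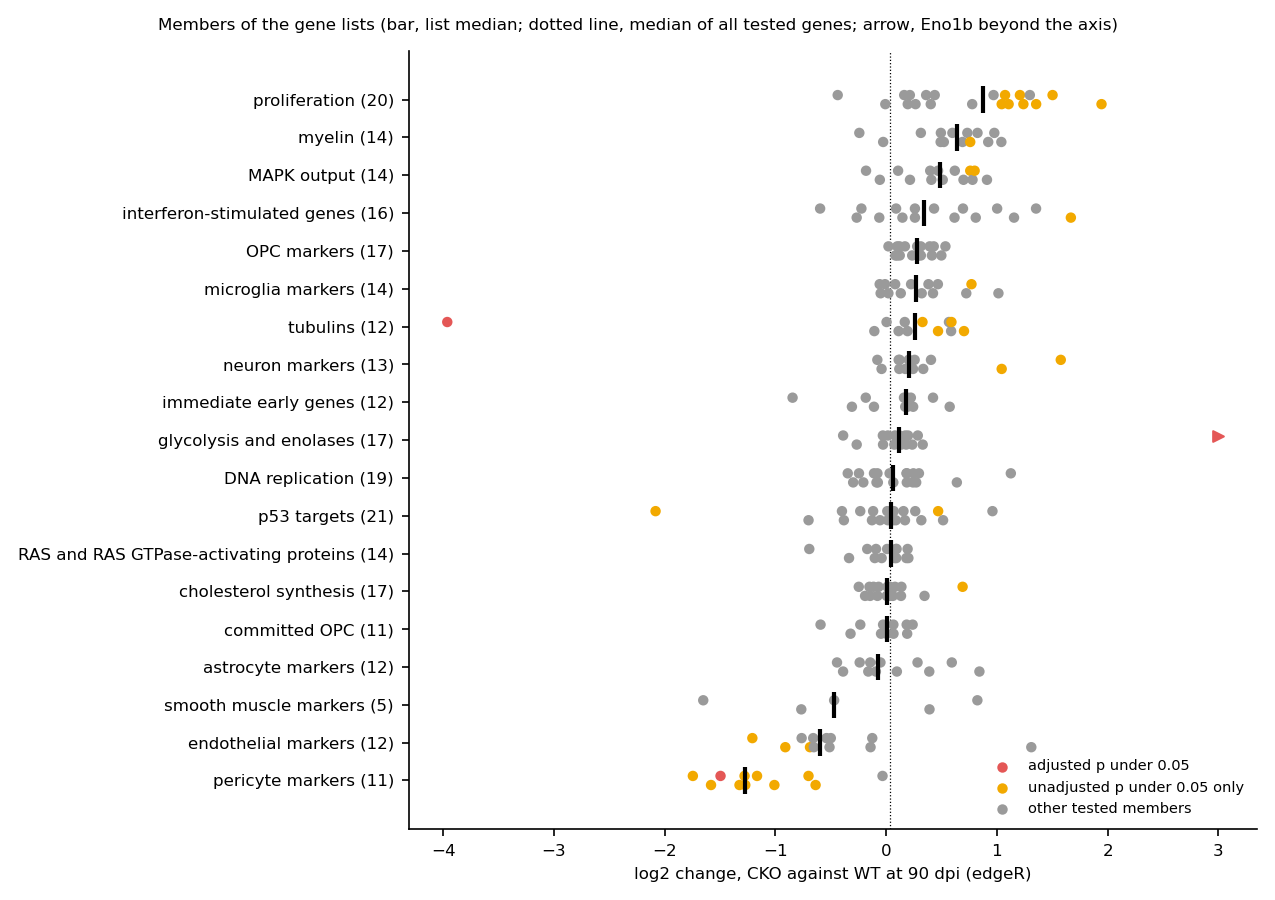
Log2 change between CKO and WT at 90 dpi (edgeR) of each tested member of 19 gene lists, with the list median as a bar, the number tested in brackets and the median of all tested genes as a dotted line. Colours mark members with an adjusted or only an unadjusted p under 0.05. Pericyte markers have the lowest median (-1.27) and proliferation genes the highest (0.87), and the blood and Iroquois lists, of 4 tested members each, are not drawn.

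A pair of the called genes are copies of Eno1, the glycolytic enzyme enolase. Eno1b (ENSMUSG00000059040) had 40.1, 155, 29.4, 47.4, 62.6, 45.7 and 72.2 CPM in CKO animals and 0 counts in all 5 WT animals. With 3 counts over the WT animals as the floor, Eno1b was at least 1377-fold higher in CKO than in these 5 WT animals (edgeR adjusted p = 6.2e-04). Eno1b reached 95.8 CPM in WT animals at 12 dpi and 125 CPM at 150 dpi, so the bound does not extend to them. The bound covers counting error and not the division of reads between copies. The processed pseudogene Gm4735 had 12.2, 20.7, 13.8, 15.0, 39.9, 22.7 and 45.0 CPM in CKO and 0 in WT animals except WT_22255, which had 0.104 CPM (edgeR adjusted p = 0.0027). Without WT_22255 the edgeR adjusted p of Gm4735 was 0.0562. Eno1b was identical to Eno1 at 99.5% and to Gm4735 at 99.8% of aligned bases.

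The parent gene Eno1 had 258 to 354 CPM in CKO (median 273) and 284 to 406 CPM in WT (median 384), with a log2 change of -0.39 (edgeR adjusted p = 0.964). The 4 genes of the Eno1 family together averaged 375 CPM in CKO (SD 67.0, n = 7) and 368 CPM in WT (SD 48.5, n = 5). The difference of these sums on the log2 scale was 0.017 (exact permutation p = 0.900, also 0.900 after adjustment over 5 families). It was -0.073 without WT_21167. The summed Eno1 family overlapped between the groups where Eno1b and Gm4735 did not. In each of the 5 families, genes that were not called held most of the sum, so the sums can miss a change in a copy. The authors' expected counts divide reads between such copies, and whether the animals differ in sequence at these genes was not tested.

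Gm8822, a processed pseudogene of Actr3, had 0.349, 0.489, 0, 0, 0, 0 and 0.0321 CPM in CKO animals and 9.48, 14.3, 18.1, 19.1 and 13.7 CPM in WT animals. Actr3 encodes a subunit of the complex that branches actin filaments. The log2 change of Gm8822 was -6.63 (SE 1.04, edgeR adjusted p = 0.0010), and it passed in all 23 alternatives that tested it. The Actr3 family summed to 364 CPM in CKO (SD 35.0, n = 7) and 326 CPM in WT (SD 65.4, n = 5), or 353 CPM (SD 29.6, n = 4) without WT_21167. The sums differed by 0.18 on the log2 scale (exact permutation p = 0.213, adjusted 0.533).

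Gm9008, a copy of the ubiquitin ligase gene Rnf26, had the lowest p of all genes. It had 2.84, 1.90, 3.07, 1.72, 3.09, 2.46 and 3.21 CPM in CKO animals and 0, 0.166, 0, 0.206 and 0.207 CPM in WT animals. The log2 change of Gm9008 was 4.13 (SE 0.54, edgeR adjusted p = 7.0e-05). The Rnf26 family summed to 17.0 CPM in CKO (SD 4.27, n = 7) and 14.6 CPM in WT (SD 3.17, n = 5), which did not pass (exact permutation p = 0.399, adjusted 0.665). Gm5436, a processed pseudogene of Atp5o, a subunit of mitochondrial ATP synthase, had 0 counts in 6 CKO animals, 0.0321 CPM in CKO_22212 and 0, 0.999, 2.00, 0.514 and 1.86 CPM in WT animals. Its log2 change was -6.22 (edgeR adjusted p = 0.0427), and the call of Gm5436 was lost when any single animal was left out (edgeR adjusted p from 0.0503 to 0.196). The Atp5o family summed to 131 CPM in CKO (SD 28.2, n = 7) and 126 CPM in WT (SD 24.2, n = 5; exact permutation p = 0.760). Gm5436 averaged 1.08 CPM of that WT sum, so the sum could not show whether Gm5436 changed.

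Tuba1c, an alpha-tubulin of microtubules, had 1.45, 3.85, 2.82, 0.737, 1.23, 0.153 and 0.257 CPM in CKO animals. In WT it had 0 in WT_21167 and 16.4, 24.5, 27.3 and 28.0 CPM in the others, so that the groups did not overlap outside WT_21167. The log2 change of Tuba1c was -3.96 (SE 0.62, edgeR adjusted p = 0.0010), and -4.05 without WT_21167 (edgeR adjusted p = 0.0012). The near-identical Tuba1b and Tuba1a had log2 changes of 0.33 and 0.17 and were not called. The 9 genes of the Tuba1b family summed to 2114 CPM in CKO (SD 215, n = 7) and 1847 CPM in WT (SD 105, n = 5), a difference of 0.19 on the log2 scale (exact permutation p = 0.0354, adjusted 0.177).

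**Figure D3:**
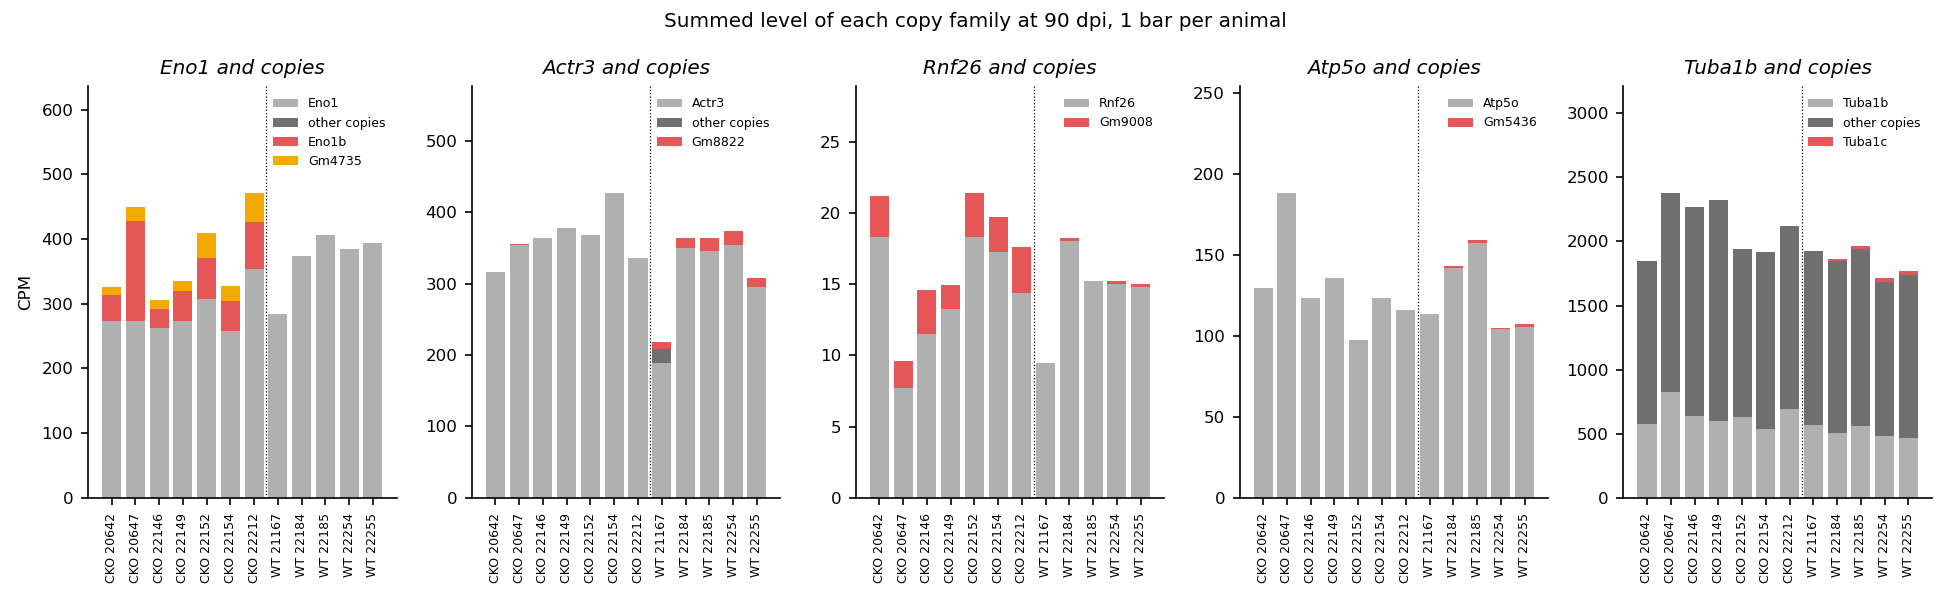
Summed CPM of 5 families of near-identical genes in the 7 CKO and 5 WT animals at 90 dpi, 1 bar per animal, with called genes in colour, the parent gene in light grey and other copies in dark grey. The called genes of the Eno1, Actr3 and Rnf26 families do not overlap between the groups. Tuba1c and Gm5436 are 0 in WT_21167 and overlap through that animal, and Gm5436 reaches at most 2.00 CPM. The bar heights overlap in all 5 families.

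Irx2 (ENSMUSG00000001504), a homeobox transcription factor of the Iroquois family, had 1.10, 0.612, 0, 0, 0.392, 1.07 and 0.481 CPM in CKO animals and 0 counts in all WT animals. With 3 counts over the WT animals as the floor, Irx2 was at least 11.1-fold higher than in these 5 WT animals (edgeR adjusted p = 0.0184). WT animals of other times reached 0.351 CPM at 12 dpi and 0.567 CPM at 150 dpi, so the bound does not extend to them. The call of Irx2 was lost without WT_22184, WT_22185, WT_22254 or WT_22255 (edgeR adjusted p of 0.0744, 0.0676, 0.203 and 0.223). It was also lost with CKO animals of 1 library (0.145), the deepest libraries (0.0803) and no sex covariate (0.0596), and so held in 14 of 21 alternatives. Without the tumours, and in the 12 animals alone, Irx2 did not pass the count filter and was not tested. At 90 dpi Irx5 had 0.0321 to 1.20 CPM in 4 CKO animals and 0 in the other CKO animals and all WT animals. It was not called (edgeR adjusted p = 0.791). In WT animals of other times Irx5 reached 0.912 CPM at 12 dpi and 1.70 CPM at 150 dpi. Irx1 had a log2 change of 0.18.

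Proliferation genes were higher in most CKO animals, and none was called. Of 20 proliferation genes 18 had a positive log2 change, 8 with an unadjusted p under 0.05. There were 5 without WT_21167, 5 in the 12 animals alone and 5 without the tumours. Without WT_21167 and the library of few genes there were 8. Over all genes 55.2% were positive, and 3.32% were positive with an unadjusted p under 0.05. The median of the proliferation genes was 0.87. It was 0.94 without WT_21167 and 1.15 without it and the library of few genes. Summed proliferation genes had 85.7, 129, 71.4, 23.3, 64.8, 99.7 and 108 CPM in CKO animals and 56.9, 34.4, 50.8, 60.4 and 72.0 CPM in WT animals. The lowest value of all, 23.3 CPM, was that of CKO_22149. Plk1, a mitotic kinase, had a log2 change of 1.94 (edgeR adjusted p = 0.593), and Top2a, a topoisomerase of dividing cells, 1.50 (0.745). Mki67, which encodes Ki-67, had 1.23 to 26.1 CPM in CKO (median 17.7) and 0 to 11.9 in WT (median 8.16). The 19 genes of DNA replication had a median of 0.065, and none had an unadjusted p under 0.05.

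Targets of p53 and of RAS signalling were also without a call. The 21 p53 targets had a median log2 change of 0.047, and of -0.042 without WT_21167 and the library of few genes. Those with an unadjusted p under 0.05 were Zmat3, at 161 CPM on average in CKO (SD 45.4, n = 7) and 123 CPM in WT (SD 33.5, n = 5), and Eda2r (log2 change -2.08). Cdkn1a, the cell cycle inhibitor p21, had 131 to 233 CPM in CKO and 85.3 to 165 in WT (log2 change 0.51). Mdm2, which degrades p53, had 81.8 to 89.8 CPM in CKO and 90.4 to 94.8 in WT, a small difference without overlap (log2 change -0.12, edgeR adjusted p = 1.00). The 14 RAS genes and RAS GTPase-activating proteins had a median of 0.042. Of 14 genes of MAPK output, the genes that RAS signalling induces, 12 were positive, 2 with an unadjusted p under 0.05, and the median was 0.49. There were 5 at that p without WT_21167, 6 in the 12 animals alone and 8 without the tumours. Over all genes these fits had 876 of 16784, 1189 of 15153 and 1243 of 15640 at that p. Without WT_21167 and the library of few genes there were 4 genes of MAPK output. Spry1, a feedback inhibitor of receptor signalling, had 13.7, 11.4, 20.7, 20.4, 21.7, 17.8 and 28.1 CPM in CKO animals and 9.48, 8.82, 9.85, 10.3 and 12.8 in WT animals (log2 change 0.80, edgeR adjusted p = 0.896). CKO_20647 was the only CKO animal within the WT range of Spry1. Summed MAPK output was highest in CKO_20647, at 1918 CPM.

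Markers of the captured lineage were present in all animals, beside markers of other brain cells. The 17 OPC markers summed to 3613 to 5764 CPM in CKO and 3612 to 4779 CPM in WT. Neuron markers (13 genes) summed higher in every animal, at 8712 to 16553 CPM in CKO and 7593 to 10088 CPM in WT. Pdgfra, the receptor that defines OPCs, had 314 to 590 CPM in CKO (median 477) and 209 to 371 in WT (median 335), with a log2 change of 0.50 (edgeR adjusted p = 0.964). Olig2, a transcription factor of the lineage, averaged 89.4 CPM in CKO (SD 13.9, n = 7) and 70.0 CPM in WT (SD 13.0, n = 5). All 17 OPC markers had a positive log2 change, none with an unadjusted p under 0.05, and the median was 0.28. Of all genes 55.2% were positive. Without WT_21167 16 of 17 were positive, with a median of 0.23. Committed precursors (11 genes) had a median of 0.0035.

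Of 14 myelin genes 12 were positive, 1 with an unadjusted p under 0.05, and the median was 0.64. In the 12 animals alone 10 had an unadjusted p under 0.05, and without the tumours 9, with medians of 0.64 and 0.63. Over all genes 1189 of 15153 were at that p in the 12 animals alone and 1243 of 15640 without the tumours. Without WT_21167 there was 1 myelin gene at that p, and without WT_21167 and the library of few genes there were 3. Mbp, the myelin basic protein, had a log2 change of -0.027. Summed myelin genes ran from 1716 to 4164 CPM in CKO and from 1763 to 2193 CPM in WT. Neuron and astrocyte markers were highest in CKO_20647. Its summed astrocyte markers had 7492 CPM, against 2972 to 4008 in the other CKO animals and 3128 to 3870 in WT. Slc17a7, a glutamate transporter of cortical neurons, had 533 CPM in CKO_20647, 23.6 to 121 in the other CKO animals and 19.0 to 59.2 in WT. Their part in the other differences was measured only by leaving out CKO_20647 or its library of few genes. The 14 microglia markers had a median of 0.27, with 1 at an unadjusted p under 0.05.

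Among 16 interferon-stimulated genes (median 0.35) Xaf1, an antagonist of the apoptosis inhibitor XIAP, was the one with an unadjusted p under 0.05. Xaf1 had 12.3, 11.3, 9.73, 10.8, 8.34, 6.91 and 10.5 CPM in CKO animals and 0, 2.83, 3.16, 4.11 and 3.00 CPM in WT animals, without overlap. Its log2 change was 1.67 (SE 0.43, edgeR adjusted p = 0.366). Xaf1 passed without the tumours (edgeR adjusted p = 0.0390) and in the 12 animals alone (0.0329). It lies on chromosome 11 (72301629 to 72313733), between Trp53 (69580359 to 69591873) and Nf1 (79339693 to 79581612). Cholesterol synthesis (17 genes), glycolysis (17), tubulins (12), immediate early genes (12) and astrocyte markers (12) had medians of 0.012, 0.12, 0.26, 0.18 and -0.072. Without WT_21167 the median of immediate early genes was 0.083, and without it and the library of few genes -0.22. Among these lists Eno1b and Tuba1c were the only calls.

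DESeq2 called 18 genes, or 0.118% of those it gave an adjusted p, 12 higher and 6 lower, with 7 of the 8 among them. Nf1 was another (DESeq2 adjusted p = 0.0218). Hjurp, which loads the centromeric histone, had 25.8 to 87.9 CPM in CKO and 9.61 to 28.4 in WT (edgeR log2 change 1.70, DESeq2 adjusted p = 0.0123). Its neighbour Mroh2a had 1.83 to 6.77 CPM in CKO and 0 to 1.18 in WT (edgeR log2 change 2.08, DESeq2 adjusted p = 0.0044). Hjurp and Mroh2a lie side by side on chromosome 1 (88262471 to 88277633 and 88226986 to 88262289). Tagap, a GTPase-activating protein of T cells, had 3.84 to 7.16 CPM in CKO and 0 to 2.00 in WT. Telo2, which stabilises kinases of the DNA damage response, had 5.38 to 11.9 CPM in CKO and 13.9 to 19.8 in WT, without overlap (edgeR log2 change -1.06, DESeq2 adjusted p = 0.0486). Rbfa, a factor of ribosome assembly, had 1.69 to 9.11 CPM in CKO and 0 to 1.69 in WT. Other genes of that set rested on few animals. Wnt7b had 10.1 and 6.14 CPM in CKO_20647 and CKO_22146 and 0 in the other animals of this comparison. WT animals of other times reached 5.47 CPM of Wnt7b at 12 dpi and 8.10 CPM at 150 dpi. Rps2-ps13, a pseudogene of a ribosomal protein, had 79.4 to 179 CPM in 5 CKO animals, 0.183 in CKO_20647 and 0 in CKO_22146. It had at most 1.00 CPM in the WT animals of this comparison. In WT animals of other times Rps2-ps13 reached 155 CPM at 12 dpi and ran from 20.4 to 130 CPM at 150 dpi.

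Between the 7 CKO and 5 WT animals 124 genes, or 0.758%, did not overlap. Among those not called, with a mean of at least 10 CPM and an unadjusted p under 0.05, the 5 lowest log2 changes were those of Gm4366 (-2.18), Pdgfrb (-1.32), Telo2 (-1.06), Eng (-0.87) and Adgre5 (-0.86). Eng, the endoglin receptor of vessel endothelium, had 5.63 to 10.1 CPM in CKO and 11.3 to 28.4 in WT. The highest were those of Cav2 (1.87), Mkx (1.25), Spock1 (1.22), Hist1h1e (1.18), Sept9 (1.05) and Gm14584 (1.01). Cav2, a caveolin, had 307 CPM in CKO_20647, 21.0 to 43.5 in the other CKO animals and 15.2 to 20.4 in WT, and its log2 change was 0.89 without CKO_20647. Hist1h1e, a linker histone, had 11.3 to 22.4 CPM in CKO and 0 to 8.77 in WT, and passed without the tumours (edgeR adjusted p = 0.0390).

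At 12 dpi 3 genes passed (0.0183%), and Gm9008, Gm8822 and Tuba1c were those genes. Their log2 changes there were 2.74, -6.79 and -3.61. The effect of genotype differed between 90 and 12 dpi for no gene by edgeR (0.00%, with 589 genes at an unadjusted p under 0.05) and for 6 by DESeq2. At that time Atp13a5 ran from 12.7 to 40.8 CPM in CKO animals and from 18.9 to 42.2 CPM in WT animals, and the groups overlapped. Its effect differed by -1.01 between the times (edgeR adjusted p = 1.00). The summed pericyte markers likewise overlapped at 12 dpi (CKO 252 to 592 CPM, WT 315 to 705 CPM), with a median log2 change of -0.24. All 20 proliferation genes had a positive log2 change at 12 dpi, with a median of 1.04, and none was called. Summed proliferation genes there ran from 110 to 203 CPM in CKO animals and from 63.0 to 119 CPM in WT animals. For the copies, WT animals of other times did not all resemble those at 90 dpi. Eno1b had 95.8, 1.05, 0, 0 and 0 CPM in WT animals at 12 dpi and 31.7 to 125 CPM in the 6 at 150 dpi. Gm8822 had 0, 0.0945 and 0.136 CPM in 3 WT animals at 150 dpi and 12.5, 14.0 and 15.1 CPM in the other 3.

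At 150 dpi 46.2% of genes passed between tumours and WT, and for 30.0% the effect of genotype differed from that at 90 dpi. In tumours Irx2 had 9.37 to 17.2 CPM, against 0 to 0.567 CPM in their WT controls. Atp13a5 had 2.69 to 13.4 CPM in tumours and 21.5 to 46.2 in WT, a log2 change of -2.53, lower than at 90 dpi by -1.03 (edgeR adjusted p = 0.0429). Of the 11 pericyte markers 7 were called lower in tumours. Tuba1c had 26.0 to 104 CPM in tumours and 0.510 to 17.4 in WT, and its effect differed from that at 90 dpi by 7.25 (edgeR adjusted p = 3.3e-08). All 20 proliferation genes were called higher in tumours, where they summed to 694 to 3349 CPM.

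**Figure D4:**
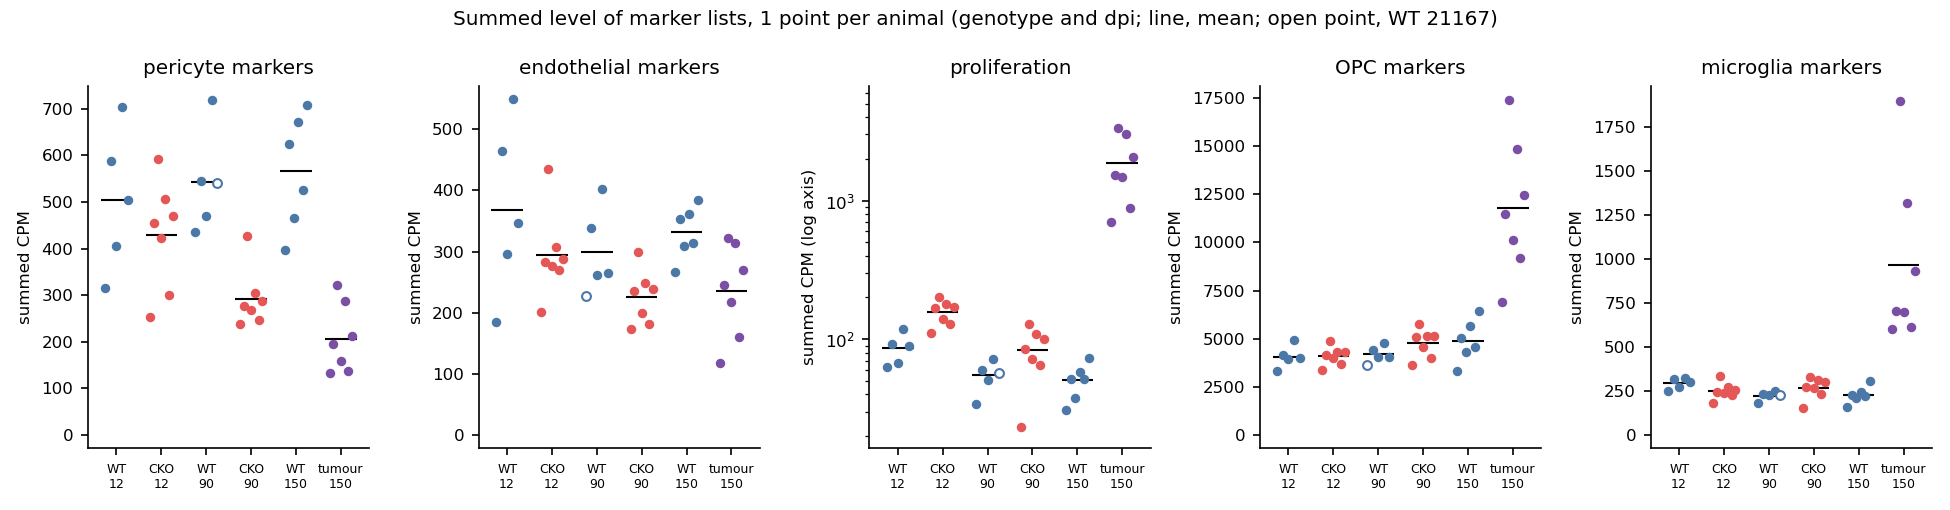
Summed CPM of pericyte, endothelial, proliferation (log axis), OPC and microglia lists in each bulk animal by genotype and dpi, with the group mean as a line and WT_21167 as an open point. At 90 dpi the pericyte sums of CKO animals (239 to 427 CPM) lie below those of WT animals (435 to 720 CPM), while the other lists overlap.

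Small libraries of CKO cells at 90 dpi, 56 of 10 cells and 40 split from pools, had no WT counterpart and allowed no comparison of genotypes. Atp13a5 was detected in 54 of the 56 and 31 of the 40, Pdgfrb in 51 and 33, and Vtn in all 56 and all 40. Eno1b was detected in 43 and 29 and Gm9008 in 28 and 19. Tuba1c was detected in 19 and 7, Gm8822 in 9 and 2, and Irx2 in 1 and 2. These libraries were amplified in another way than the bulk ones, and their levels were not compared.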

How the data were processed

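RNA of laser-captured cells was amplified with T7 polymerase, per the labels' protocols. The deposited values are expected counts per gene and need not be whole. Per the submitters' processing notes, Bowtie2 and RSEM were used with GRCm38. No versions were given in the sources used here. The authors' expected counts divide reads among similar genes, so near-identical copies are uncertain.

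Counts were added up per animal and rounded, for 37 animals in 6 groups. Genes kept by filterByExpr (minimum count 10, minimum total 15) were normalised by TMM in edgeR 4.0.16 (R 4.3.3). The quasi-likelihood model held every bulk animal, with sex as a term, and p-values were adjusted by Benjamini-Hochberg over the 16349 genes. The common biological coefficient of variation was 0.418. CPM use TMM-scaled totals, and a prior count of 2 went into log2 CPM. Copies had 95% identity or more across 50% or more of the shorter GENCODE transcript (blastn 2.17.0). Sums over copies, Nf1 and Trp53 were compared on log2 CPM by exact permutation tests. Simulated data of 16168 genes for this comparison held changes only in genes with a mean of at least 10 CPM. Of genes changed by 1 on the log2 scale 56% were called, of those changed by 2 94% and of those changed by -2 100%. Of 15968 unchanged genes 7 were called. Genes of lower level were given no change, so the share called among them was not measured. Nothing says whether animals shared litters or days, so p-values measure the spread between these animals. Floors cover counting error only.

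The groups and the 21 gene lists were chosen with earlier results of these data known, so lists were described and not tested. Genes were named from Nf1, Trp53, called genes, genes called only by DESeq2 1.42.0 or only without WT_21167, the 6 highest and 5 of the 6 lowest uncalled changes without overlap (mean of 10 CPM or more), and of each list the 2 highest, the 2 lowest and defining markers. Other list members and genes called without the tumours were named after their values were seen. Alternatives were DESeq2, RLE scaling, other filters, no sex term, 1 library per animal, other sets of animals, a robust spread and each animal left out. Leaving out the library of few genes, alone or with WT_21167, was added after seeing the data. Results for a few genes and for 1 pair of sequences are not reported here.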

Additional observations from a re-analysis of the deposited data

Results flagged for a closer look

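In 60 groups of 7 or 5 animals tested for an animal far from the others, 20 were marked, where chance marks about 1 in 20. WT_21167, the animal of 93694 counts, was the one apart in 14 of them. It was the lowest WT animal for Trp53 (9.48 CPM) and for the mean log2 CPM of the lists of DNA replication (1.41), p53 targets (2.89), RAS genes (4.54), OPC markers (6.38), committed OPCs (5.07), endothelial markers (0.89), smooth muscle markers (0.066), interferon-stimulated genes (-1.98), cholesterol synthesis (4.72), tubulins (5.17), glycolysis (6.08) and Iroquois factors (-2.73), and the highest for blood markers (-0.98). CKO_20647 stood apart from the other CKO animals for Nf1 (302 CPM), Eno1b (155 CPM) and MAPK output (6.07 mean log2 CPM). The others were CKO_22146 for glycolysis (6.85 mean log2 CPM), CKO_22212 for Gm5436 (0.0321 CPM) and WT_22255 for Gm4735 (0.104 CPM).

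The effect of genotype differed between 150 and 90 dpi by edgeR's test for 5 of the 8 called genes, and for 30.0% of all genes. The 8 genes were called on the 90 dpi values that this difference also uses, so the count is a description. The difference of the log2 changes was -12.93 for Eno1b, -9.30 for Gm4735 and -1.03 for Atp13a5, and 7.25 for Tuba1c and 5.86 for Gm5436. Eno1b and Gm4735 were at or near 0 in WT animals at 90 dpi, so their fitted differences depend on the prior count and are no bounds. At 150 dpi Eno1b and Gm4735 averaged 76.1 and 27.7 CPM in WT animals and 68.0 and 26.7 CPM in tumours.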

How the results depend on the processing

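The count of 8 called genes was 18 with DESeq2, 16 without the tumours and 3 with a mean of at least 10 CPM, where fewer genes were tested, and ran from 4 to 8 when each animal was left out. The 0 genes with a different genotype effect at 90 and 12 dpi became 6 with DESeq2 and 1 without a filter, and stayed 0 (0 to 0) with each animal left out. The 4904 between 150 and 90 dpi ran from 4349 to 4941. Nf1 (-0.62) was called with CKO animals of 1 library (-0.78), DESeq2 (-0.63), the deepest libraries (-0.74), no tumours (-0.64), without the library of few genes (-0.75) without it and WT_21167 (-0.75) and without CKO_20647 (-0.74), and ran from -0.74 to -0.58 with each animal left out. Trp53 (0.068) was -0.18 with CKO animals of 1 library, -0.031 without the library of few genes and WT_21167, and -0.040 to 0.16 with each animal left out. Its permutation difference was -0.034 without WT_21167. The Eno1 and Atp5o families were at -0.071 and -0.036 with plain totals, and Eno1 at -0.073 without WT_21167, with no call in any. Art3 (-0.033), never called, was 0.33 with CKO animals of 1 library, 0.012 without the sex covariate, 0.036 without the library of few genes, and -0.29 to 0.31 with each animal left out. The causes were not tested. The calls of Gm9008, Eno1b, Gm8822 and Tuba1c held in every alternative in which they were tested. No paired analysis was possible because the animal numbers do not recur between the groups. Depth limits WT_21167, where a gene under 9.48 CPM may have no count. Of 1413 values of 60 other results (single genes and list medians) under alternatives, 1350 kept their call and direction or moved by less than the spread, 28 lost a call, 19 gained one, 7 gene values changed sign (all of Art3) and 9 medians of the Iroquois and blood lists moved further. List medians that moved by less than the spread could still cross 0. Immediate early genes ran from -0.19 to 0.29 and DNA replication from -0.071 to 0.18 with each animal left out. The medians of p53 targets, RAS genes, cholesterol synthesis, committed OPCs and interferon-stimulated genes also crossed 0 under at least 1 alternative.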
